A study of Mus musculus with 21 samples.

Results

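The S phase and DNA replication genes described here are 42 listed mouse genes whose products license, start and carry out the copying of DNA or supply its building blocks. A gene counted as measured where a row of the deposited table is annotated to exactly that gene, and where several rows were, the brightest of them over the 21 arrays stood for the gene. By that rule 40 of the 42 genes were measured, among 22180 genes in all. Rfc4 and Ccne2 lie only on probe sets annotated to several genes and are not described. The study sorted cells of the mouse stomach corpus, the acid-secreting part of the stomach, by flow cytometry into 3 populations with high, low or no signal of a green fluorescent protein that reports the stem cell marker Lgr5 (Lgr5GFP high, low and negative). RNA of each population was read on microarrays. Tamoxifen mice had received 0.27 mg of tamoxifen per g of body weight 24 hours before cell isolation, and each of their 3 populations has 4 arrays. Control mice were marked as uninjected, and each of their 3 populations has 3 arrays. The samples hold no mice injected with vehicle. Title numbers, read here as sorting runs, differ between tamoxifen and control arrays, so drug, injection and run cannot be told apart. The labels call the arrays technical replicates from single sorting runs, so the p-values measure the spread between these arrays, which may be technical. Strain, age and the exact reporter allele are not given in the sources used here. The source field of the control negative arrays reads low, while their titles and population field read negative, and the latter was followed.

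Before S phase, the origin recognition complex with CDC6 and CDT1 loads the MCM2 to MCM7 helicase onto DNA, and CDC45 and the GINS complex then switch it on. Primase and the polymerases copy the strands behind it, held by the PCNA clamp, while nucleotide enzymes such as ribonucleotide reductase feed the fork. Much of this set is switched on together at the border of G1 and S by E2F transcription factors, so its RNA is widely read as a sign of cells entering or passing S phase. In the corpus, dividing cells are known mainly from the isthmus of the gland, and chief cells at the gland base divide rarely unless the tissue is injured.

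Some promoters of these genes carry letters of the kind E2F factors bind, and 4 that do are printed to show how the letters lie: those of the helicase genes Mcm5, Mcm6 and Mcm7 and of Orc1, from the complex that loads the helicase. Upstream sequences of 250 bases were in the RefSeq promoter table (GRCm38.p6) for 33 of the 42 genes. On both strands, any of TTTGGCGC, TTTCCCGC, TTTGCCGC or TTTCGCGC was present in 8 of these 33 promoters (24.2%) and in 517 of 27025 promoters in the table (1.91%). The 8 were those of Orc1, Cdc6, Mcm5, Mcm6, Mcm7, Gins3, Pola1 and Rfc3, and the windows of the helicase genes Mcm2 and Mcm3 held none. The letters CCAAT, which NF-Y binds, were in 20 of 33 (60.6%) against 34.5% of all, and TTTGAA, the letters of the cell cycle homology region, in 4 of 33 (12.1%) against 16.3%. No E2F-like match overlapped a CCAAT match, while in 2 promoters E2F-like matches overlapped each other. The stretches lie at chr4:108579204-108579453 on the plus strand (Orc1), chr8:75109259-75109508 on the plus strand (Mcm5), chr1:128359706-128359955 on the minus strand (Mcm6) and chr5:138171884-138172133 on the minus strand (Mcm7, the first of 2 windows listed). Each is written 5′ to 3′ and ends just before the annotated transcription start, and capitals mark the E2F-like matches on either strand.
Orc1: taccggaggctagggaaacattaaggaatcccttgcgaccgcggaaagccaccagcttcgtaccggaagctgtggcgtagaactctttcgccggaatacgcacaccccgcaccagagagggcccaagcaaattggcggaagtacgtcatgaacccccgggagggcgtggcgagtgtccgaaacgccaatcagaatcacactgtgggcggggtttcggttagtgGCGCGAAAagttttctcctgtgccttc
Mcm5: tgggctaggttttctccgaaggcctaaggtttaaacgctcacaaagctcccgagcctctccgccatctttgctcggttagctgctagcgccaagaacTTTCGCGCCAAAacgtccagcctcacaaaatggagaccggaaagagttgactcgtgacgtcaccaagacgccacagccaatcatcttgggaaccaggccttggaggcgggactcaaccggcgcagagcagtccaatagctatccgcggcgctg
Mcm6: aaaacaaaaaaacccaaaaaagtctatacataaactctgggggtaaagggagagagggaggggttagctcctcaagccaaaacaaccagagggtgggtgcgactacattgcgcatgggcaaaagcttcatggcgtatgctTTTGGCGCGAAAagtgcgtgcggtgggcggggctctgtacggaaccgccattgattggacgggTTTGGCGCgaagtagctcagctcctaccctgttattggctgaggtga
Mcm7: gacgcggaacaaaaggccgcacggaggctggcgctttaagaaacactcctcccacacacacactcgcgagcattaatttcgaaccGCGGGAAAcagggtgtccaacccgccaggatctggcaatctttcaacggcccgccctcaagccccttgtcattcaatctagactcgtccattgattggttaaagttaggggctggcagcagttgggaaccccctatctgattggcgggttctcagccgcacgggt
Orc1 has 1 such match and Mcm7 has 1, Mcm5 has 2 that overlap on opposite strands, and Mcm6 has 3, of which 2 overlap. A match is a run of letters and not a measured binding site.

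All levels are log2 signal as the authors deposited it, so a difference of 1 is a 2-fold difference, and levels of different genes cannot be set against each other on an array. As a guide to background, 1105 olfactory receptor genes, silent in most tissues, were used: their median was 2.52 and their 95th percentile 4.16 (log2), and 39 of the 40 genes averaged above that percentile (Orc1 did not). By group mean, 6 genes lay at or under it in control high cells (Orc1, Cdc6, Cdc45, Gins1, Pole and Pole2), 2 in control low cells, 5 in tamoxifen high cells, 1 in tamoxifen low cells and 0 in either negative population, so their differences there may be understated. Arrays of a group correlated at Pearson's r of 0.944 to 0.991. Lgr5, which the sort rests on, measured 8.40 to 9.15 in control high cells, 7.48 to 7.71 in control low cells and 4.06 to 4.82 in control negative cells. Chief cell markers averaged 8.29 to 9.91 over 10 genes on all arrays, and Lipf among them was at background on every array. So were the immune markers Cd3e, Cd3g and Cd79a, the endothelial markers Cdh5, Emcn, Cldn5 and Eng and the squamous markers Krt14, Krt13, Krt4 and Trp63. The parietal marker Slc26a7, the endocrine marker Neurod1 and the fibroblast marker Lum were at background on every array too. In the endocrine and immune lists, Neurog3, Itgam and Cd52 averaged at or under the background guide. Within groups, control low 3, control high 1 and the tamoxifen negative arrays stood apart for these genes, as the values below show. A gene was called changed where limma's adjusted p (Benjamini-Hochberg over all 22180 genes) was under 0.05, and all errors given with ± are standard errors (SE) of that fit. The median difference over all genes lay between -0.01 and 0.05 in each comparison. Counts at an unadjusted p under 0.05 are given without the share of all genes at that cut, which was not computed. No excess can be read from them.

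Across the 6 groups, the mean log2 level of the 40 genes separated negative cells from high cells and placed low cells between them after tamoxifen. In control mice the mean was 5.05, 5.13 and 5.38 on the high arrays, 5.05, 5.19 and 5.94 on the low arrays and 6.90, 6.52 and 6.67 on the negative arrays. In tamoxifen mice it was 5.60, 5.37, 5.23 and 5.23 on the high arrays, 5.93, 6.04, 6.42 and 5.92 on the low arrays and 6.32, 6.22, 7.13 and 7.02 on the negative arrays. In order, the group means were 5.19 (SD 0.17) in control high, 5.36 (SD 0.17) in tamoxifen high, 5.40 (SD 0.48) in control low, 6.08 (SD 0.24) in tamoxifen low, 6.67 (SD 0.47) in tamoxifen negative and 6.69 (SD 0.19) in control negative cells. Each group overlapped its neighbour in this order, and control low overlapped tamoxifen low only through control low 3. Tamoxifen negative arrays 3 and 4 lay above every control negative array, and arrays 1 and 2 below every one of them. Genes of G2 and mitosis, which follow S phase, spread more widely, and their mean over 27 genes was 4.42, 4.85 and 6.66 on the control low arrays and 6.08, 5.65, 7.38 and 7.88 on the tamoxifen negative arrays.

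**Figure D1:**
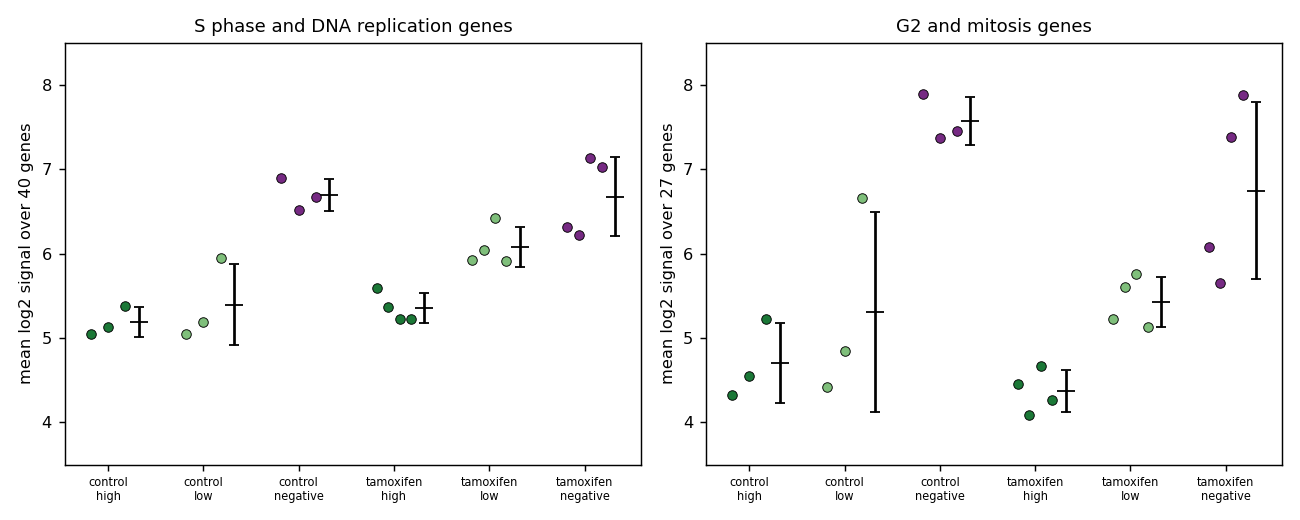
Mean log2 signal of the 40 S phase and DNA replication genes (left) and of 27 G2 and mitosis genes (right) on each array, by group; points are arrays, the horizontal mark is the group mean and bars are 1 SD over the 3 control or 4 tamoxifen arrays. For replication genes the negative groups average 6.69 and 6.67, the high groups 5.19 and 5.36, and control low 3 (5.94) lies above the other control low arrays (5.05 and 5.19).

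**Figure D2:**
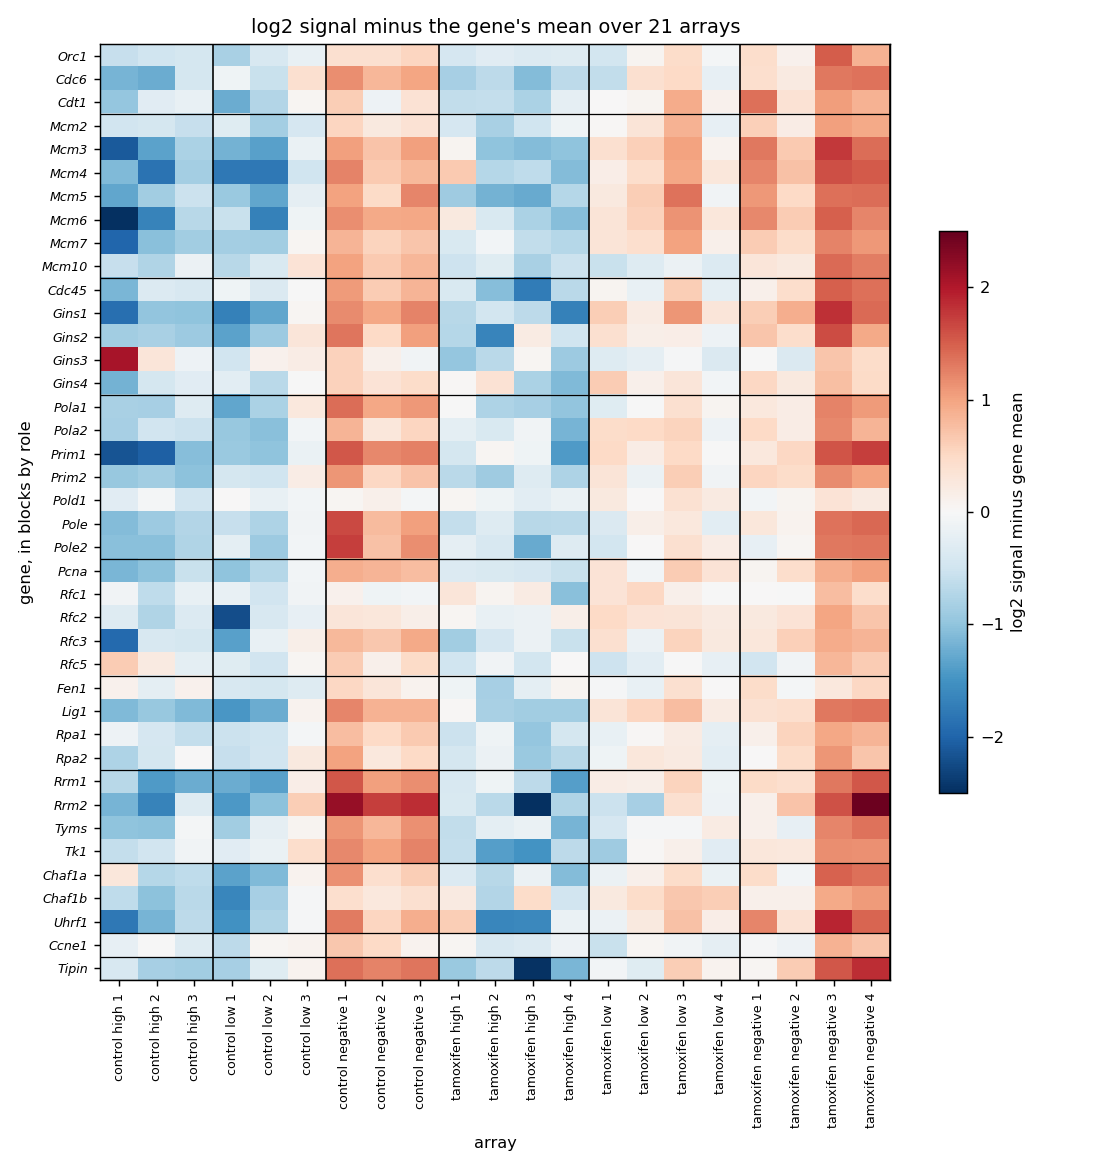
Log2 signal of each of the 40 genes minus its mean over the 21 arrays, colour from blue (below the mean) to red (above), with genes in blocks by role and arrays in blocks by group. Control negative arrays and tamoxifen negative arrays 3 and 4 are red for most genes, and tamoxifen low arrays are redder than control low 1 and 2 for Mcm2 to Mcm7.

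The comparison of high with negative cells asks how replication RNA differs between the brightest reporter cells and those without reporter. It was lower in high cells for most of the set. In control mice 31 of 40 genes were lower and 0 higher (7.66% of all genes were called lower and 4.64% higher), with a median log2 difference of -1.72 and single genes from -3.09 to 0.55. In tamoxifen mice 32 of 40 were lower and 0 higher (6.97% of all genes called lower and 3.33% higher), with a median of -1.34. Both comparisons called 30 genes, which is 96.8% of the 31 and 93.8% of the 32. The 2 comparisons share no arrays, but they come from the same fit, which pools each gene's variance over all groups. They are therefore not independent. The overlap of calls over all genes is not given, so no excess can be read from these shares. Chaf1b was called only in control mice, and Cdt1 and Chaf1a only in tamoxifen mice, and the interaction term did not call any of them. The high arrays lay wholly below the negative arrays for 35 genes in control mice (17% of all genes) and for 30 in tamoxifen mice (6.17% of all genes), and wholly above for 0 in either (16.4% and 4.77% of all genes). By role, all 7 MCM genes and all 4 nucleotide genes were lower in both treatments, as were 6 of 7 polymerase and primase genes and 4 of 5 helicase activation genes. Only 2 of the 5 clamp and clamp loader genes were (Pcna and Rfc3). With any 1 array left out, 24 of the 31 and 26 of the 32 calls held. In control mice the call of Chaf1b ended without any 1 of the 6 arrays, that of Mcm2 without any but control negative 2, and that of Pola2 without control high 1 or control negative 1. In tamoxifen mice that of Tyms ended without tamoxifen high 4, tamoxifen negative 3 or tamoxifen negative 4, that of Pole2 without tamoxifen high 3, tamoxifen negative 3 or tamoxifen negative 4, and that of Mcm6 without tamoxifen negative 3; the remaining losses are given with the genes.

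Other markers moved with the same contrast. The summed level of 7 surface pit cell markers, given as their mean, was 8.11 to 9.39 on control high arrays and 11.92 to 12.00 on control negative arrays, with 6 of 7 lower in high cells in control mice and 7 of 7 in tamoxifen mice. For 8 tuft cell markers it was 9.95 to 10.69 on control high and 6.49 to 7.66 on control negative arrays, with 7 of 8 higher in high cells. Of 12 endocrine cell markers, 6 were lower in high cells in control mice (median -1.77) and 8 in tamoxifen mice (median -3.50). In both treatments 0 of the 12 were higher. Of 11 immune cell markers, whose mean was 4.5 to 4.77 on control high and 4.29 to 4.58 on control negative arrays, 1 was higher and 1 lower. The one higher was Ptprc, the pan-leukocyte marker CD45 (4.13 ± 0.76, adjusted p = 0.000781). It measured 9.80, 9.10 and 8.25 on control high and 5.34, 4.18 and 5.24 on control negative arrays. On tamoxifen high arrays Ptprc measured 4.54, 5.64, 7.89 and 8.86, and the tuft cell mean 7.34, 8.92, 9.81 and 10.02. On control high arrays the tuft cell mean was 10.69, 10.29 and 9.95, in the same order as Ptprc. In tamoxifen mice 1 of the 11 immune cell markers was higher and 3 were lower. The cells that carry Ptprc were not identified. The part of these markers in the replication result was not tested. In sorted bulk samples, fewer cycling cells and less replication RNA per cell cannot be told apart. All 27 measured G2 and mitosis genes were lower in high than in negative cells in both treatments, with medians of -2.94 in control and -2.29 in tamoxifen mice.

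Low cells were set against negative cells in the same way. In control mice 28 of 40 genes were lower in low cells and 0 higher (3.41% of all genes called lower and 1.85% higher), with a median of -1.25, and 35 lay wholly below the negative arrays and 0 above (13.8% and 13.3% of all genes). In tamoxifen mice 1 gene, Mcm10, was lower and 0 were higher (1.73% of all genes called lower and 0.509% higher), with a median of -0.63, and Gins2, Mcm10 and Tk1 lay wholly below and 0 above (3.81% and 3.61% of all genes). At an unadjusted p under 0.05, limma gave 22 of 40 in tamoxifen mice and 37 in control mice. The share of all genes at that cut was not computed. The control count rests on few arrays: it was 11 without control low 1, 11 without control low 2, 10 without control negative 1, 17 without control negative 2, 11 without control negative 3 and 31 without control low 3. The 10 genes called without any 1 array were Gins1, Lig1, Mcm3, Mcm4, Mcm5, Pcna, Pola1, Pole, Prim1 and Rrm1. The tamoxifen count was 0 without tamoxifen low 1, tamoxifen negative 3 or tamoxifen negative 4, 3 without tamoxifen negative 1 and 4 without tamoxifen negative 2. It was also 0 in a fit of the compared groups only, 2 with title number as a random block, and 4 with the title number as a block. The replicate number as a block gave 2, but it ties tamoxifen negative arrays to low arrays of another title number. Cell markers moved with this contrast too: in control mice 6 of 7 surface pit cell markers were lower and 1 higher in low than in negative cells (median -3.31), and 4 of 12 parietal, 4 of 10 chief and 2 of 8 tuft cell markers were higher. In tamoxifen mice 3 of 7 surface pit and 6 of 12 endocrine cell markers were lower, and 3 of 10 chief and 1 of 12 parietal cell markers were higher. The pit cell mean was 8.78 to 9.59 on control low, 9.64 to 10.36 on tamoxifen low, 11.92 to 12.00 on control negative and 11.43 to 11.82 on tamoxifen negative arrays, and the endocrine mean was 5.21 to 7.31 on tamoxifen low and 7.64 to 9.06 on tamoxifen negative arrays. The part of these markers was not tested.

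**Figure D3:**
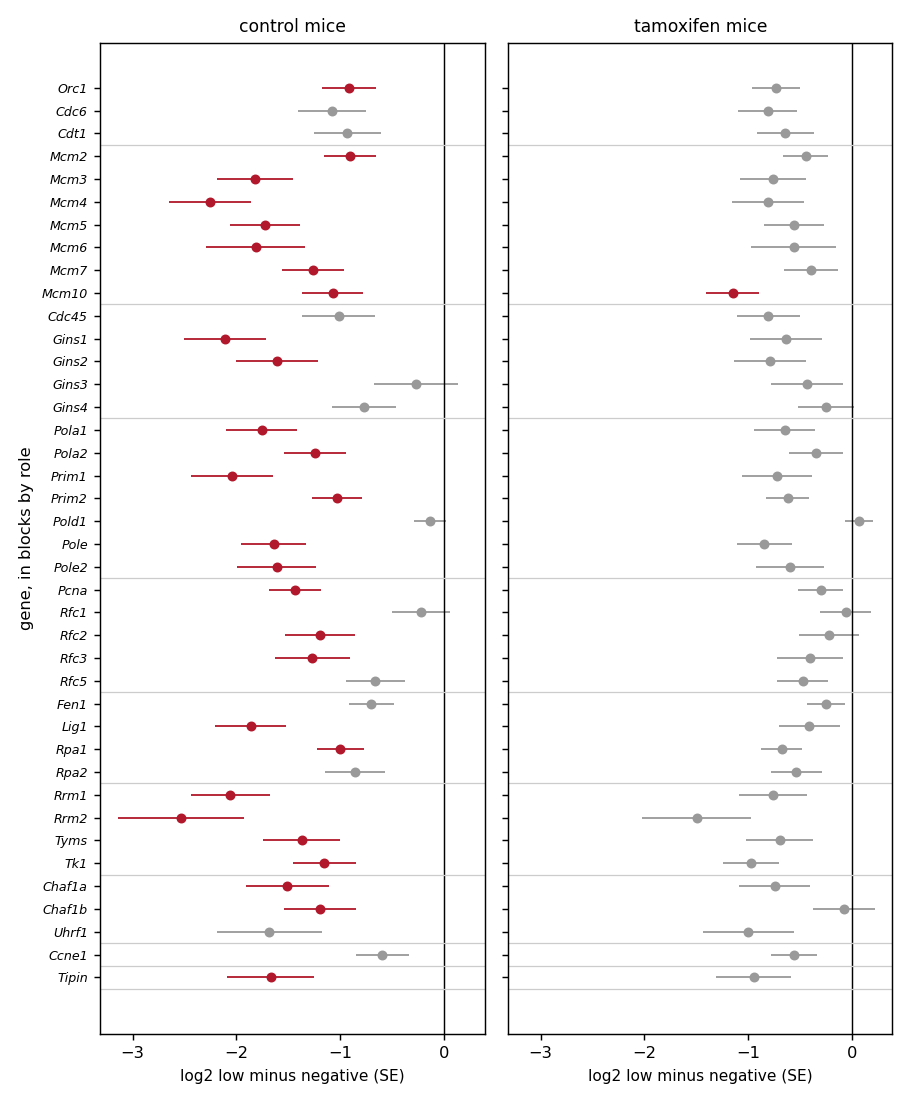
Log2 difference of low minus negative cells for each gene, in control mice (left) and tamoxifen mice (right), with bars of 1 SE and genes in blocks by role; red marks an adjusted p under 0.05. In control mice 28 genes are red with a median of -1.25, and in tamoxifen mice Mcm10 alone is red with a median of -0.63.

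High cells were also set against low cells. In control mice 0 of 40 genes were called by limma (0.694% of all genes called higher and 0.645% lower), 5 had an unadjusted p under 0.05, and the median was -0.23, which became 0.09 without control low 3, -0.15 without control high 1 and -0.45 when control low 1 was left out. The arrays lay wholly apart for 4 genes, with Fen1 above and Mcm7, Prim1 and Prim2 below in high cells (8.31% of all genes above, 7.81% below). In tamoxifen mice 6 of 40 were lower in high cells and 0 higher (1.77% of all genes called lower and 1.46% higher), with a median of -0.76, and 13 lay wholly below the low arrays and 0 above (4.57% and 2.88% of all genes). The 6 were Gins1, Lig1, Mcm3, Mcm5, Prim2 and Tipin, and Mcm5 alone held with any 1 array left out. The count was 1 without tamoxifen high 4, tamoxifen low 1 or tamoxifen low 3, 3 without tamoxifen high 3 or tamoxifen low 2, and 2 in a fit of the compared groups only.

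The comparison of tamoxifen with control asks what differed in each population a day after injection. In low cells 11 of 40 genes were higher and 0 lower (5.35% of all genes called higher, 2.98% lower), with a median log2 difference of 0.61, and 36 of the 40 differences were above 0, where the median over all genes was at most 0.05. They were Mcm2, Mcm3, Mcm4, Mcm5 and Mcm7 of the helicase, Gins1 of its activator, Pola2 of the polymerase alpha complex, Pcna and Rfc2 of the clamp and its loader, the ligase gene Lig1 and the chromatin assembly gene Chaf1b. All tamoxifen low arrays lay above all control low arrays for 14 genes, and none lay wholly below (12.1% of all genes above, 9.06% below). At an unadjusted p under 0.05 limma gave 21 of 40, with the share of all genes at that cut not computed. None of the 3 licensing genes or the 4 nucleotide genes was called. The count was 2 without control low 1, 3 without control low 2, 7 without tamoxifen low 3 and 16 without control low 3, and Mcm4 alone held without any 1 array.

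In high cells 0 of 40 genes were called by limma (1.7% of all genes called higher and 1.04% lower), 6 had an unadjusted p under 0.05, and the median was 0.16. The tamoxifen arrays lay wholly above the control arrays for Lig1, Mcm7, Orc1, Pcna, Pole and Rfc2 (5.78% of all genes) and wholly below for 1, Tk1 (4.6% of all genes). The count of calls ran from 0 to 3 when single arrays were left out: 1 without tamoxifen high 3, 2 without tamoxifen high 4 and 3 without control high 3. The median was 0.08 without control high 1 and 0.24 without tamoxifen high 4 or control high 3. In negative cells 0 of 40 were called (1.62% of all genes called higher and 0.703% lower), 1 had an unadjusted p under 0.05 (Cdt1, 0.63 ± 0.30), the median was -0.01 (-0.16 to 0.13 with single arrays left out), and no gene's arrays lay wholly apart (7.89% of all genes above and 7.38% below).

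Whether the tamoxifen difference was itself different between populations was tested with interaction terms, and limma called 0 of 40 genes in each. The term for low minus negative cells had a median of 0.74 over the set, with 38 of 40 values above 0. By adjusted p it called 0.171% of all genes higher and 0.667% lower. At an unadjusted p under 0.05 it gave 13 of the 40, with no share of all genes to set beside them. Its smallest adjusted p was 0.136, for Pcna (1.14 ± 0.33), and without control low 3 limma called 2 genes, Lig1 (adjusted p = 0.0189) and Pcna (adjusted p = 0.0407). The term for high minus negative cells had a median of 0.20 and called 0.0992% of all genes higher and 0.149% lower. That for high minus low cells had a median of -0.46 and called 0.00902% higher and 0.018% lower. At an unadjusted p under 0.05 these terms gave 3 and 7 of the 40, again without a share of all genes. Single arrays moved these medians. That for high minus negative cells was 0.04 without control high 1, 0.05 without tamoxifen high 1 or tamoxifen negative 2, 0.07 without control negative 1, 0.32 without control negative 2 and 0.35 without tamoxifen negative 3. That for high minus low cells was -0.28 without control low 1, and leaving out control low 3 made it -0.70. That for low minus negative cells was 0.48 with control low 1 left out. These 3 terms share arrays with one another and with the comparisons above.

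**Figure D4:**
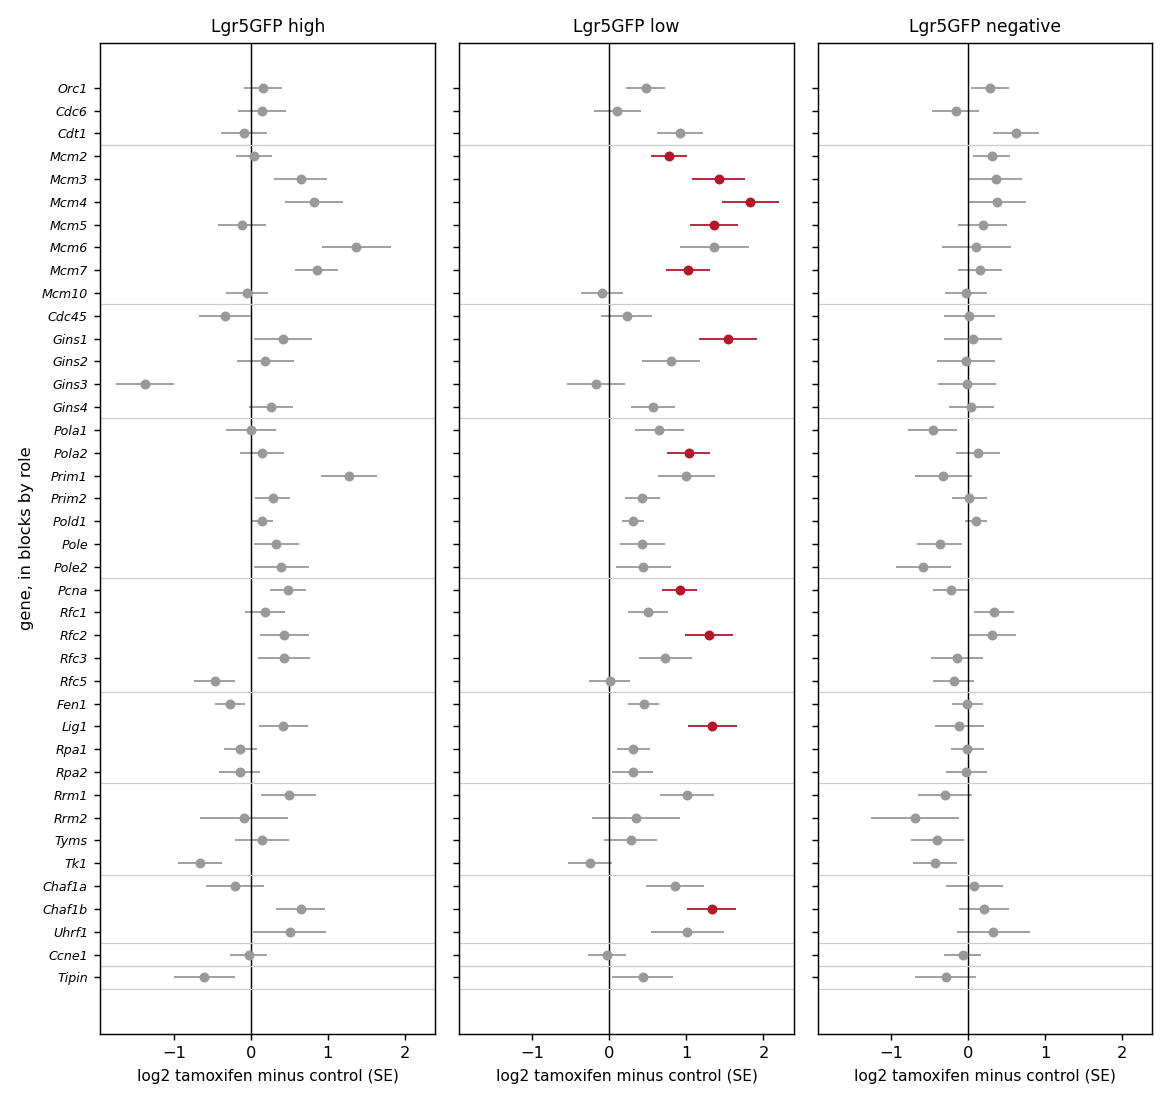
Log2 difference of tamoxifen minus control for each gene in high, low and negative cells, with bars of 1 SE and genes in blocks by role; red marks an adjusted p under 0.05. In low cells 11 genes are red, and 0 are red in high or negative cells.

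Along with the low cell difference, other cell markers moved. The mean level of 8 tuft cell markers was 8.18 to 9.48 on control low arrays and 5.23 to 6.75 on tamoxifen low arrays, and 7 of the 8 fell. The mean of 12 parietal cell markers was 8.17 to 8.80 and 6.91 to 7.46, with 6 of 12 lower, and that of 12 endocrine markers 6.60 to 8.23 and 5.21 to 7.31, with 3 of 12 lower. For surface pit cell markers it was 8.78 to 9.59 and 9.64 to 10.36, with 2 of 7 higher. The mean of 10 chief cell markers was 9.47 to 9.91 on control low and 8.80 to 9.03 on tamoxifen low arrays, with 2 of 10 lower, among them Bhlha15 (-3.02 ± 0.36, adjusted p = 2.95e-05), a factor of mature secretory cells. That of 7 mucous neck cell markers was 9.92 to 10.71 and 8.12 to 9.62, with 2 of 7 lower. Of 11 immune cell markers, whose mean was 4.08 to 4.49 and 4.26 to 4.46, Ptprc fell (-2.67 ± 0.71, adjusted p = 0.0209) and Cd68, a lysosomal protein of macrophages, rose (2.79 ± 0.24, adjusted p = 6.78e-07). Lgr5 fell by 0.86 ± 0.21 (adjusted p = 0.011). Their part in the replication result was not tested. Of 27 G2 and mitosis genes, limma called 0 in low cells and 0 had an unadjusted p under 0.05, with a median difference of 0.12. That value rests on control low 3: the mean of those genes was 4.42, 4.85 and 6.66 on the control low arrays, and all tamoxifen low arrays (5.13 to 5.76) lay above the first 2 and below the last. The difference between the lists was not tested.

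The licensing genes come first in the order of replication, and all 3 were lower in high than in negative cells after tamoxifen. Values are given in the order of the replicates. Cdc6 measured 3.79, 3.72 and 4.53 in control high, 4.86, 4.41 and 5.37 in control low and 6.13, 5.79 and 5.95 in control negative cells. After tamoxifen, Cdc6 measured 4.13, 4.31, 3.87 and 4.31 in high, 4.36, 5.36, 5.45 and 4.76 in low and 5.39, 5.18, 6.29 and 6.31 in negative cells. Cdc6 encodes the loader that joins the origin complex to the helicase, and in both treatments all high arrays lay below all negative arrays (-1.94 ± 0.33 in control, adjusted p = 0.000376, and -1.64 ± 0.28 in tamoxifen mice, adjusted p = 0.000714). Its tamoxifen difference in low cells was 0.10 ± 0.31 (adjusted p = 0.894). Cdt1 measured 4.47, 5.16 and 5.27 in control high, 4.20, 4.71 and 5.48 in control low and 6.06, 5.32 and 5.80 in control negative cells. After tamoxifen, Cdt1 measured 4.83, 4.84, 4.65 and 5.21 in high, 5.46, 5.50, 6.36 and 5.54 in low and 6.81, 5.81, 6.48 and 6.32 in negative cells. Cdt1, which brings the helicase to the origin and is destroyed in S phase as a protein, was low on control low 1 and high on tamoxifen low 3 and tamoxifen negative 1, and control and tamoxifen low arrays overlapped at 5.46 to 5.48. The difference between high and negative cells was -1.47 ± 0.28 in tamoxifen mice (adjusted p = 0.00144) and -0.76 ± 0.32 in control mice (adjusted p = 0.147), and that between tamoxifen and control low cells was 0.92 ± 0.30 (adjusted p = 0.0638). Orc1 measured 3.22, 3.30 and 3.35 in control high, 2.99, 3.40 and 3.60 in control low and 4.20, 4.20 and 4.32 in control negative cells. After tamoxifen, Orc1 measured 3.37, 3.51, 3.46 and 3.47 in high, 3.33, 3.87, 4.25 and 3.74 in low and 4.24, 3.89, 5.30 and 4.66 in negative cells. Orc1, the largest subunit of the origin complex, was near background outside the negative cells. In negative cells, where all values were above those of the high cells, Orc1 lay from 3.89 to 5.30, in part close to the background guide of 4.16. It was called lower in high cells in both treatments (adjusted p = 0.0195 in control and 0.00387 in tamoxifen mice), and the control call ended without control high 1, control high 2, control negative 1 or control negative 3 (highest adjusted p = 0.075).

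The helicase subunits MCM2 to MCM7 form the ring that unwinds DNA, and their genes gave 5 of the 11 calls in tamoxifen low cells. Mcm5 measured 4.32, 4.76 and 5.10 in control high, 4.69, 4.32 and 5.41 in control low and 6.63, 6.11 and 6.85 in control negative cells. After tamoxifen, Mcm5 measured 4.74, 4.44, 4.37 and 4.91 in high, 5.88, 6.25, 6.99 and 5.53 in low and 6.72, 6.13, 7.0 and 7.02 in negative cells. All tamoxifen low arrays of Mcm5 lay above every control low array and every tamoxifen high array. Of them, arrays 2 and 3 lay within the range of the negative cells, and arrays 1 and 4 below every negative array. It rose by 1.36 ± 0.31 in low cells (adjusted p = 0.00924, 2.56-fold) and was lower by 2.92-fold in high than in low cells after tamoxifen (-1.55 ± 0.29, adjusted p = 0.00457). In control mice high and low cells of this gene differed by -0.08 ± 0.34 (adjusted p = 0.989). Mcm7 measured 3.93, 4.87 and 5.03 in control high, 5.06, 5.03 and 5.96 in control low and 6.77, 6.46 and 6.60 in control negative cells. After tamoxifen, Mcm7 measured 5.53, 5.84, 5.29 and 5.21 in high, 6.22, 6.32, 6.91 and 6.03 in low and 6.54, 6.37, 7.15 and 7.0 in negative cells. All tamoxifen arrays of Mcm7 lay above all control arrays both in low and in high cells. The call was made in low cells (1.02 ± 0.28, adjusted p = 0.0269), while in high cells the difference was 0.85 ± 0.28 (adjusted p = 0.11). Mcm3 measured 4.17, 4.94 and 5.49 in control high, 5.09, 4.91 and 6.11 in control low and 7.30, 6.99 and 7.29 in control negative cells. After tamoxifen, Mcm3 measured 6.33, 5.26, 5.19 and 5.27 in high, 6.68, 6.86, 7.28 and 6.36 in low and 7.58, 6.92, 8.04 and 7.66 in negative cells. Mcm3 was lowest on control high 1 and, among tamoxifen high arrays, stood apart on array 1. It rose by 1.42 ± 0.34 in low cells (adjusted p = 0.012, 2.68-fold) with no overlap. Of these 3 calls in low cells, Mcm5 was lost without control low 2 (highest adjusted p = 0.0718), Mcm3 without control low 1 or 2 (0.084), and Mcm7 without control low 1 or 2 or tamoxifen low 2 or 3 (0.143).

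Mcm4, chosen for description after its values were seen, had the highest difference of the set in low cells. Mcm4 measured 5.41, 4.66 and 5.67 in control high, 4.73, 4.72 and 6.01 in control low and 7.75, 7.16 and 7.32 in control negative cells. After tamoxifen, Mcm4 measured 7.16, 5.81, 5.89 and 5.42 in high, 6.68, 6.95, 7.49 and 6.80 in low and 7.73, 7.24, 8.13 and 8.04 in negative cells. Control low 1 and 2 lay near 4.7, every tamoxifen low array was above every control low array, and tamoxifen high 1 was far above the other tamoxifen high arrays. The rise in low cells was 1.83 ± 0.37 (adjusted p = 0.00356, 3.55-fold), from 1.61 to 2.25 over the fits without 1 array (highest adjusted p = 0.0321). Mcm2 rose by 0.77 ± 0.23 (adjusted p = 0.0458), a call that ended without any 1 of the low arrays but tamoxifen low 4, and under cyclic loess normalization. Mcm6 differed by 1.36 ± 0.44 with no overlap, and its adjusted p of 0.0633 did not pass. Mcm10, which joins the active helicase to polymerase alpha and is no part of the ring, was also chosen after its values were seen. Mcm10 measured 4.38, 4.22 and 4.82 in control high, 4.27, 4.59 and 5.32 in control low and 5.97, 5.63 and 5.79 in control negative cells. After tamoxifen, Mcm10 measured 4.45, 4.67, 4.16 and 4.43 in high, 4.41, 4.65, 4.83 and 4.63 in low and 5.26, 5.20, 6.38 and 6.26 in negative cells. Its tamoxifen low arrays lay within the range of the control low arrays (-0.10 ± 0.27, adjusted p = 0.889) and wholly below the tamoxifen negative arrays (-1.15 ± 0.25, adjusted p = 0.0154), a call that ended without tamoxifen low 1, tamoxifen negative 3 or tamoxifen negative 4 (highest adjusted p = 0.0835) and in a fit of the compared groups only.

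**Figure D5:**
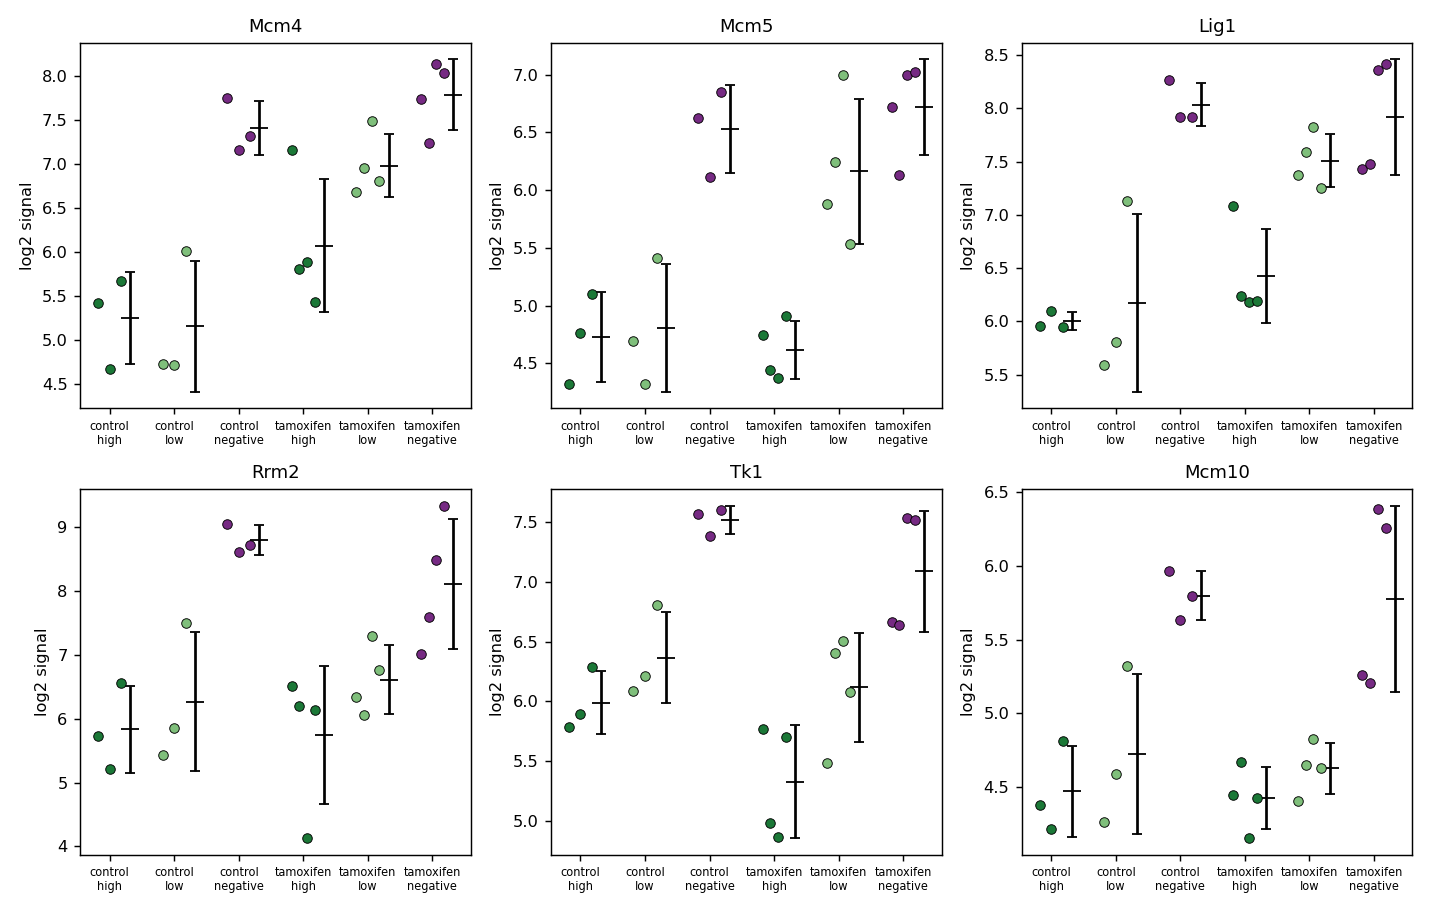
Log2 signal of 6 genes on each array by group; points are arrays, the horizontal mark is the group mean and bars are 1 SD over 3 control or 4 tamoxifen arrays. Mcm4, Mcm5 and Lig1 lie higher on all 4 tamoxifen low arrays than on the control low arrays, while Rrm2, Tk1 and Mcm10 overlap between those 2 groups.

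CDC45 and the GINS complex complete the active helicase. Gins1 measured 3.26, 4.15 and 4.13 in control high, 3.45, 3.84 and 5.19 in control low and 6.32, 6.11 and 6.38 in control negative cells. After tamoxifen, Gins1 measured 4.44, 4.69, 4.49 and 3.45 in high, 5.76, 5.35, 6.24 and 5.45 in low and 5.76, 6.05, 6.97 and 6.55 in negative cells. Gins1, a GINS subunit, lay above every control low array on all 4 tamoxifen low arrays and rose by 1.54 ± 0.37 (adjusted p = 0.0121). It was also lower in high than in low cells after tamoxifen (-1.43 ± 0.35, adjusted p = 0.0242). Both calls depended on single arrays: the first ended without control low 1 or 2 (highest adjusted p = 0.104) and the second without tamoxifen high 4, tamoxifen low 1 or tamoxifen low 3 (0.0815). Cdc45 measured 3.54, 4.32 and 4.27 in control high, 4.56, 4.31 and 4.66 in control low and 5.74, 5.31 and 5.52 in control negative cells. After tamoxifen, Cdc45 measured 4.30, 3.61, 2.93 and 4.0 in high, 4.74, 4.48, 5.29 and 4.43 in low and 4.80, 5.12, 6.18 and 6.05 in negative cells. Cdc45 was at 2.93 on tamoxifen high 3, under the background guide, and in low cells the 2 treatments overlapped (0.22 ± 0.33, adjusted p = 0.767). It was lower in high than in negative cells in control (-1.48 ± 0.35, adjusted p = 0.0072) and tamoxifen mice (-1.83 ± 0.31, adjusted p = 0.000533), and the control call ended without control high 1 (adjusted p = 0.0566). Gins2 measured 5.75, 5.81 and 5.70 in control high, 5.27, 5.70 and 6.91 in control low and 7.96, 7.11 and 7.64 in control negative cells. After tamoxifen, Gins2 measured 5.90, 4.95, 6.82 and 6.12 in high, 7.02, 6.75, 6.78 and 6.48 in low and 7.31, 7.06, 8.24 and 7.57 in negative cells. Gins2, another GINS subunit, overlapped in low cells only through control low 3, and its difference of 0.80 ± 0.37 did not pass (adjusted p = 0.222). It was lower in high than in negative cells in control (-1.81 ± 0.40, adjusted p = 0.00373) and tamoxifen mice (-1.60 ± 0.35, adjusted p = 0.00434). Gins4 was lower in high than in negative cells in both treatments (adjusted p = 0.022 and 0.0405), but the control call ended without control high 1, control negative 1 or control negative 3 and the tamoxifen call held only without tamoxifen high 1, tamoxifen high 2 or tamoxifen negative 2.

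Polymerase alpha with primase lays the primers, and polymerases delta and epsilon extend them. Prim1 measured 4.11, 4.24 and 5.20 in control high, 5.33, 5.26 and 6.10 in control low and 7.82, 7.48 and 7.52 in control negative cells. After tamoxifen, Prim1 measured 5.83, 6.32, 6.16 and 4.86 in high, 6.77, 6.46, 6.76 and 6.27 in low and 6.52, 6.78, 7.85 and 8.0 in negative cells. Prim1, the catalytic primase subunit, was 8.52-fold lower in control high than in control negative cells (-3.09 ± 0.39, adjusted p = 3.22e-05), the largest fold between these cells in the set. After tamoxifen the difference was -1.49 ± 0.34 (adjusted p = 0.00632), and the interaction of 1.60 ± 0.52 did not pass (adjusted p = 0.273). Between treatments, Prim1 differed by 1.28 ± 0.37 in high cells (adjusted p = 0.0668) with overlap between control high 3 and tamoxifen high 4, and by 1.00 ± 0.37 in low cells (adjusted p = 0.105) with no overlap. Prim2 measured 4.62, 4.71 and 4.56 in control high, 5.14, 5.09 and 5.77 in control low and 6.68, 6.10 and 6.29 in control negative cells. After tamoxifen, Prim2 measured 4.89, 4.69, 5.26 and 4.81 in high, 5.90, 5.44, 6.19 and 5.49 in low and 6.12, 6.04, 6.75 and 6.58 in negative cells. Prim2, the other primase subunit, was lower in high than in negative cells in both treatments (adjusted p = 7.76e-05 and 0.000116) and lower in high than in low cells after tamoxifen (-0.84 ± 0.21, adjusted p = 0.0282), the last ended by leaving out tamoxifen high 2, tamoxifen high 4, tamoxifen low 1 or tamoxifen low 3 (highest adjusted p = 0.0983). Pole measured 3.72, 3.90 and 4.07 in control high, 4.21, 4.02 and 4.71 in control low and 6.45, 5.60 and 5.83 in control negative cells. After tamoxifen, Pole measured 4.20, 4.48, 4.11 and 4.13 in high, 4.43, 4.94, 5.07 and 4.54 in low and 5.08, 4.89, 6.15 and 6.23 in negative cells. Pole, the catalytic subunit of polymerase epsilon, was near background in high cells and above it in negative cells, with no overlap in either treatment (-2.06 ± 0.31 in control, adjusted p = 0.000134, and -1.36 ± 0.27 in tamoxifen mice, adjusted p = 0.00211). Pola2, the second subunit of polymerase alpha, rose by 1.03 ± 0.28 in tamoxifen low cells (adjusted p = 0.0245), with tamoxifen low 4 at 5.28 below control low 3 at 5.34, and lost its call without any low array but tamoxifen low 4 or control low 3 (highest adjusted p = 0.14). Pola1 and Pole2 were lower in high than in negative cells in both treatments, and Pold1 was called in no comparison.

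PCNA is the ring that tethers polymerases to DNA, and the replication factor C proteins load it. Pcna measured 8.25, 8.35 and 8.83 in control high, 8.38, 8.66 and 9.32 in control low and 10.28, 10.24 and 10.15 in control negative cells. After tamoxifen, Pcna measured 9.04, 8.99, 8.96 and 8.83 in high, 9.72, 9.32, 10.03 and 9.73 in low and 9.45, 9.83, 10.30 and 10.41 in negative cells. Pcna had the same low point in tamoxifen and high point in control low cells (9.32 each), and every other tamoxifen low array was higher than every control low array. It rose by 0.91 ± 0.23 in low cells (adjusted p = 0.0168, 1.88-fold) and lost the call without control low 1, control low 2 or tamoxifen low 3 (highest adjusted p = 0.131). In high cells all tamoxifen arrays lay at or above the highest control array (0.48 ± 0.23, adjusted p = 0.304). Rfc2 measured 5.44, 5.01 and 5.41 in control high, 3.54, 5.35 and 5.54 in control low and 6.07, 6.05 and 5.90 in control negative cells. After tamoxifen, Rfc2 measured 5.81, 5.58, 5.62 and 5.90 in high, 6.25, 6.10, 6.07 and 5.98 in low and 6.0, 6.10, 6.75 and 6.45 in negative cells. Rfc2 stood at 3.54 on control low 1, under the background guide, with the other control low arrays at 5.35 and 5.54. Its rise of 1.29 ± 0.31 in low cells (adjusted p = 0.012) became 0.65 without that array (adjusted p = 0.0613). Rfc3 measured 3.87, 5.41 and 5.38 in control high, 4.46, 5.63 and 5.97 in control low and 6.62, 6.50 and 6.76 in control negative cells. After tamoxifen, Rfc3 measured 4.93, 5.39, 5.68 and 5.25 in high, 6.22, 5.67, 6.38 and 6.06 in low and 6.10, 6.42, 6.75 and 6.66 in negative cells. Rfc3 was likewise low on control high 1 and control low 1, and was lower in high than in negative cells in both treatments (-1.74 ± 0.36, adjusted p = 0.00241, and -1.17 ± 0.31, adjusted p = 0.0195). Its tamoxifen difference in low cells was 0.73 ± 0.34 (adjusted p = 0.22). The high and negative call of Rfc3 in tamoxifen mice ended without tamoxifen negative 3 or 4 (highest adjusted p = 0.07).

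On the lagging strand, RPA coats single-stranded DNA and ligase 1 joins the fragments. Lig1 measured 5.95, 6.10 and 5.95 in control high, 5.59, 5.80 and 7.13 in control low and 8.27, 7.92 and 7.92 in control negative cells. After tamoxifen, Lig1 measured 7.08, 6.24, 6.18 and 6.19 in high, 7.37, 7.59, 7.82 and 7.25 in low and 7.43, 7.48, 8.36 and 8.41 in negative cells. Lig1 was higher on every tamoxifen low array than on any control low array, and tamoxifen high 1 stood above the other 3 tamoxifen high arrays. It rose by 1.34 ± 0.32 in low cells (adjusted p = 0.0107, 2.52-fold), a call lost without control low 1 or 2 (highest adjusted p = 0.0926). High cells were lower than low cells after tamoxifen (-1.09 ± 0.29, adjusted p = 0.0459), a call lost without any 1 array but tamoxifen high 1 (highest adjusted p = 0.12). Rpa1 measured 6.88, 6.59 and 6.40 in control high, 6.47, 6.50 and 6.96 in control low and 7.77, 7.50 and 7.66 in control negative cells. After tamoxifen, Rpa1 measured 6.47, 6.90, 6.03 and 6.56 in high, 6.81, 7.03, 7.21 and 6.79 in low and 7.14, 7.57, 7.97 and 7.86 in negative cells. Rpa1, the large RPA subunit, was lower in high than in negative cells with no overlap in either treatment (-1.02 ± 0.23, adjusted p = 0.00408, and -1.14 ± 0.20, adjusted p = 0.00067), and its tamoxifen difference in low cells was 0.31 ± 0.21 (adjusted p = 0.439). Rpa2 measured 5.15, 5.50 and 5.94 in control high, 5.36, 5.46 and 6.18 in control low and 6.93, 6.20 and 6.43 in control negative cells. After tamoxifen, Rpa2 measured 5.49, 5.78, 5.01 and 5.25 in high, 5.83, 6.21, 6.15 and 5.67 in low and 5.94, 6.39, 7.04 and 6.62 in negative cells. Rpa2, the middle subunit, showed the same order of populations, with -0.99 ± 0.29 (adjusted p = 0.0259) and -1.12 ± 0.25 (adjusted p = 0.00554) between high and negative cells, the first lost without control high 1, control high 2, control negative 1 or control negative 3 (highest adjusted p = 0.154). Neither RPA gene was called between treatments.

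The enzymes of nucleotide supply were among the most unequal between populations and were not called between treatments. Rrm2 measured 5.73, 5.20 and 6.56 in control high, 5.44, 5.86 and 7.50 in control low and 9.05, 8.61 and 8.73 in control negative cells. After tamoxifen, Rrm2 measured 6.51, 6.21, 4.13 and 6.13 in high, 6.34, 6.05, 7.29 and 6.76 in low and 7.01, 7.59, 8.48 and 9.34 in negative cells. Rrm2, the subunit of ribonucleotide reductase that is made in S phase, was 4.13 on tamoxifen high 3 and 7.50 on control low 3, and tamoxifen low arrays lay within the range of control low arrays. It was 7.82-fold lower in high than in negative cells of control mice (-2.97 ± 0.61, adjusted p = 0.0021) and 5.14-fold after tamoxifen (-2.36 ± 0.53, adjusted p = 0.0056), and the tamoxifen difference in low cells was 0.35 ± 0.57 (95% interval -0.84 to 1.54, adjusted p = 0.794). Rrm1 measured 6.50, 5.79 and 5.95 in control high, 5.95, 5.85 and 7.37 in control low and 8.76, 8.22 and 8.37 in control negative cells. After tamoxifen, Rrm1 measured 6.80, 7.10, 6.56 and 5.83 in high, 7.39, 7.34, 7.75 and 7.09 in low and 7.69, 7.63, 8.53 and 8.76 in negative cells. Rrm1, the large subunit, overlapped between treatments in low cells only through control low 3 and differed by 1.00 ± 0.35 (adjusted p = 0.089). It was lower in control low than in control negative cells (-2.06 ± 0.38, adjusted p = 0.00267), a call that held without any 1 array. Tk1 measured 5.78, 5.90 and 6.28 in control high, 6.09, 6.21 and 6.80 in control low and 7.57, 7.38 and 7.60 in control negative cells. After tamoxifen, Tk1 measured 5.77, 4.98, 4.87 and 5.71 in high, 5.49, 6.40, 6.50 and 6.08 in low and 6.66, 6.64, 7.53 and 7.52 in negative cells. Tk1, the thymidine kinase of dividing cells, was lower on all tamoxifen high arrays than on any control high array, though the difference of -0.66 ± 0.29 did not pass (adjusted p = 0.245). In low cells its tamoxifen difference was -0.25 ± 0.29 (95% interval -0.85 to 0.35, adjusted p = 0.685). Tyms, thymidylate synthase, was lower in high than in negative cells in both treatments and differed by 0.28 ± 0.35 between treatments in low cells (adjusted p = 0.719).

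Chromatin is rebuilt behind the fork by chromatin assembly factor 1, and UHRF1 guides the copying of DNA methylation. Chaf1b measured 4.98, 4.59 and 4.95 in control high, 3.98, 4.79 and 5.60 in control low and 6.05, 5.89 and 6.02 in control negative cells. After tamoxifen, Chaf1b measured 5.84, 4.89, 6.09 and 5.13 in high, 5.85, 6.09, 6.28 and 6.24 in low and 5.76, 5.75, 6.57 and 6.69 in negative cells. Chaf1b, a subunit of that factor, lay higher on all tamoxifen low arrays than on any control low array and rose by 1.33 ± 0.32 (adjusted p = 0.0126), a call lost without control low 1 (0.92, adjusted p = 0.12). After tamoxifen its low and negative cells differed by -0.07 ± 0.30 (adjusted p = 0.964). Chaf1a measured 5.31, 4.31 and 4.38 in control high, 3.68, 3.92 and 5.11 in control low and 6.17, 5.44 and 5.63 in control negative cells. After tamoxifen, Chaf1a measured 4.69, 4.34, 4.87 and 3.94 in high, 4.87, 5.14, 5.49 and 4.85 in low and 5.47, 4.96, 6.50 and 6.39 in negative cells. Chaf1a, the large subunit, overlapped between treatments in low cells through control low 3 (0.85 ± 0.37, adjusted p = 0.188) and was lower in high than in negative cells after tamoxifen (-1.37 ± 0.35, adjusted p = 0.0129, lost without tamoxifen negative 3). Uhrf1 measured 4.06, 4.69 and 5.19 in control high, 4.33, 5.09 and 5.83 in control low and 7.15, 6.39 and 6.76 in control negative cells. After tamoxifen, Uhrf1 measured 6.46, 4.22, 4.24 and 5.69 in high, 5.70, 6.09, 6.58 and 6.01 in low and 7.07, 6.22, 7.76 and 7.31 in negative cells. Uhrf1 ranged widely among tamoxifen high arrays, where array 1 reached the level of the negative cells, and was lower in high than in negative cells in both treatments (-2.12 ± 0.51, adjusted p = 0.0069, and -1.94 ± 0.44, adjusted p = 0.00596). Tipin, a partner of TIMELESS that protects stalled forks, closes the list. Tipin measured 5.38, 4.94 and 4.92 in control high, 4.94, 5.49 and 5.86 in control low and 7.16, 7.01 and 7.12 in control negative cells. After tamoxifen, Tipin measured 4.85, 5.12, 3.30 and 4.63 in high, 5.71, 5.47, 6.39 and 5.88 in low and 5.84, 6.42, 7.34 and 7.63 in negative cells. It was lower in high than in negative cells in both treatments (-2.02 ± 0.42, adjusted p = 0.00241, and -2.33 ± 0.37, adjusted p = 0.000291) and lower in high than in low cells after tamoxifen (-1.39 ± 0.37, adjusted p = 0.0394), where tamoxifen high 3 at 3.30 was the lowest array. That last call held only without tamoxifen high 1 or tamoxifen high 2 (highest adjusted p = 0.132).

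In all, 34 of the 40 genes were called in at least 1 of the 12 comparisons and 6 in none, namely Gins3, Pold1, Rfc1, Rfc5, Fen1 and Ccne1. The share of all genes called in at least 1 comparison was not computed, so no excess can be read from this count. Gins3 was the only gene with a high array above all negative arrays of its treatment: control high 1 measured 6.61, where the other control high arrays measured 4.86 and 4.42. On that same array Mcm6 was 4.40, against 5.96 and 6.95. Their tamoxifen differences in high cells were -1.38 ± 0.38 for Gins3 (adjusted p = 0.0536) and 1.37 ± 0.44 for Mcm6 (adjusted p = 0.105), and without control high 1 they were -0.72 and 0.68. Ccne1, the cyclin that starts S phase with CDK2, differed by -0.03 ± 0.24 between treatments in low cells (95% interval -0.54 to 0.47, adjusted p = 0.962). Of 4 genes with a second probe set, Rrm2 gave 0.35 and 0.36 between treatments in low cells and Rpa1 0.31 and 0.14. Fen1, which trims the flaps of lagging strand fragments, gave 0.44 and -0.22, the latter on a set with a mean of 3.53 near background, and the dim second set of Pole gave 0.04 against 0.43.

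Genes around the set moved in part with it in tamoxifen low cells. Of 40 other replication and checkpoint genes, 8 were higher and 0 lower (median 0.45), with the origin subunits Orc5 (0.90 ± 0.18) and Orc2 (0.76 ± 0.19), Mms22l of fork repair (0.90 ± 0.22) and Pold3 of polymerase delta (1.04 ± 0.28) among them. Of 14 chromatin replication genes, 4 were higher and 0 lower (median 0.58): the histone acetyltransferase Hat1 (1.47 ± 0.26), the histone chaperones Nasp (0.86 ± 0.24) and Rbbp4 (0.67 ± 0.19) and the chromatin remodeller Hells (1.77 ± 0.52). Of 21 other nucleotide supply genes, 4 were higher and 0 lower (median 0.30): the deoxycytidylate deaminase Dctd (1.37 ± 0.31), Ctps, which makes CTP (1.29 ± 0.30), the serine enzyme Shmt2 (0.96 ± 0.25) and Samhd1 (0.99 ± 0.26), which breaks dNTPs down rather than making them. Over all genes 5.35% were called higher in this comparison.

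Among 31 regulators of the step from G1 to S, 3 were higher and 2 lower in tamoxifen low cells (median 0.05). Myc, a growth and proliferation factor, rose by 1.58 ± 0.30 (adjusted p = 0.00206), from 6.33, 5.93 and 6.36 on control low arrays to 7.68, 7.79, 8.02 and 7.68 on tamoxifen low arrays, and Cdk4, the kinase of cyclin D, by 0.86 ± 0.22 (adjusted p = 0.0173). E2f6, a repressor of the E2F family named here because it was the other call, was the remaining one that rose. The cyclin-dependent kinase inhibitors Cdkn1c (-1.67 ± 0.36, adjusted p = 0.00598) and Cdkn1b (-0.80 ± 0.20, adjusted p = 0.0161) fell. E2f1 lay between 3.76 and 5.07 on all 21 arrays and was called in no comparison. These levels are near the background guide of 4.16, so differences of E2f1 may be understated. E2f8, itself induced in S phase, was lower in high than in negative cells in control (-2.58 ± 0.43, adjusted p = 0.000304) and tamoxifen mice (-2.12 ± 0.37, adjusted p = 0.000752). In high cells Myc rose too (1.88 ± 0.30, adjusted p = 0.00179). There 0 of the 40 replication genes were called, with 26 of their differences above 0 and a median of 0.16. How Myc and the replication genes relate was not tested.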

How the data were processed

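RNA of sorted cells was isolated with a micro kit, amplified, labelled with biotin and hybridised, per the labels' protocols. The authors deposited log2 expression values per probe set, and the submitters' processing notes name R 3.2.3, limma 3.26.8, RMA and oligo, with no role or order given. RMA as commonly run subtracts background and brings arrays to a common distribution, so a change shared by all genes would not be seen. No depth applies to arrays, and their number limits the precision. Of 41345 probe sets, 23521 name 1 gene in GEO's platform annotation, 1814 name several and were left out, and the rest of the table's rows are unnamed here; 23328 symbols were matched through gene numbers to the RefSeq gene table.

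The brightest probe set of each of 22180 genes entered limma 3.58.1 (lmFit and eBayes, R 4.3.3) with 6 groups, 21 arrays and 12 comparisons, 15 residual and 5.27 prior degrees of freedom. Adjusted p-values are Benjamini-Hochberg values over all genes of a comparison, and the threshold was 0.05. The script was tested on simulated data. Values per array were given for up to 3 called genes of each role, those with the smallest adjusted p in any comparison. From each neighbouring list, the rule named up to 4 called genes with the smallest adjusted p in a comparison, most of them by their difference only. A set panel held Lgr5, Mki67, Top2a, Ccna2, Cdk1, E2f1, Myc, Cdkn1a and Ccnd1. Of these, Mki67, Top2a, Ccna2, Cdk1 and Ccnd1 are not described singly. The members and lists were chosen with earlier results of these data known. Groups follow titles and population fields. Replicate numbers pair control high with control low arrays (correlations of deviations from group means 0.22 to 0.32) and control low with control negative arrays (0.11 to 0.23), while over all 19 pairs with 1 title number 11 were above 0.1 and the lowest was -0.16. Alternatives were averaging all probe sets of a gene, renormalizing by cyclic loess, robust eBayes with a mean trend, a fit of the compared groups only, a filter on the dimmest 25% of genes, random and fixed blocks, and leaving out each array. Promoter sequences are RefSeq's, build GRCm38.p6.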

Additional observations from a re-analysis of the deposited data

Results flagged for a closer look

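In groups of 4 arrays, 5 of 123 tested sets of values held an array far from the other 3, where chance gives about 1 in 20. On tamoxifen high 1, Mcm3 measured 6.33 (the others 5.19 to 5.27) and Lig1 measured 7.08 (the others 6.18 to 6.24). Some cell marker means on that array lay outside the range of the other 3, but were not put to this outlier rule. The tuft cell mean was 7.34 (the others 8.92 to 10.02) and the endocrine mean 7.18 (the others 4.66 to 5.58). The mucous neck cell mean was 10.71 (the others 8.97 to 9.90). The part of these markers was not tested. Rrm2 measured 4.13 on tamoxifen high 3, against 6.13 to 6.51. In tamoxifen low cells, Cdt1 measured 6.36 on array 3, against 5.46 to 5.54, and Pola2 measured 5.28 on array 4, against 5.86 to 5.97. The groups of 3 control arrays were not tested in this way.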

How the results depend on the processing

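In the 6 comparisons with called replication genes, their number stayed within 1.5 times the reported count in 42 of 47 refits that changed a processing choice and in 25 of 43 that left out 1 array. In the other 6, where the count was 0, a count that stayed 0 says little about stability, and the refits that raised it are given here. The median difference of the set moved by less than the spread between replicates in all 93 refits of the first kind and all 105 of the second, over the 12 comparisons. That limit was wide, so passing it says little about stability. Even a change of sign passed: with single arrays left out, the median for control high against low cells ran from -0.45 to 0.09. The median of the tamoxifen difference in high minus negative cells ran from 0.04 to 0.35 and passed too. For the counts, the exceptions among processing choices lie in tamoxifen mice or high cells. Between tamoxifen and control high cells, 1 gene was called in place of 0 without the dimmest 25% of genes (Gins3) and 1 with the replicate number as a block (Prim1). Between low and negative tamoxifen cells, where 1 was reported, the count was 0 in a fit of the compared groups only, 2 with title number as a random block, 2 with the replicate block and 4 with the block by title number. Between high and low tamoxifen cells it was 2 rather than 6 in a fit of the compared groups only. The replicate block gave 12 in place of 11 calls between tamoxifen and control low cells and 30 in place of 28 between control low and negative cells. It gave 31 as before between control high and negative cells and 9 in place of 6 between tamoxifen high and low cells. Beyond the counts given here it changed none by over 1.5 times. This block ties control to tamoxifen arrays, whose title numbers differ. It also ties tamoxifen negative arrays to high and low arrays of another title number. So it does not follow the title numbers, read here as sorting runs, across all groups. With single arrays left out the count ran from 0 to 3 for tamoxifen against control in high cells, 2 to 16 in low cells, 10 to 31 for control low against negative, 0 to 4 for tamoxifen low against negative, 1 to 8 for tamoxifen high against low, and 0 to 2 for the tamoxifen difference in low minus negative cells. The cause was not tested. Signals near those of olfactory receptor genes bound what can be seen for Orc1, Cdc6, Cdc45, Gins1, Pole and Pole2 in high cells.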

Other observations

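Cdkn1a, which encodes the cyclin-dependent kinase inhibitor p21, differed in the opposite order to the replication genes in control mice and was level between populations after tamoxifen. It measured 10.55, 9.82 and 9.90 on control high arrays, 9.27, 8.88 and 9.22 on control low arrays and 8.21, 7.55 and 8.02 on control negative arrays. After tamoxifen it measured 9.85, 10.46, 10.37 and 9.89 in high, 10.64, 10.23, 9.42 and 9.94 in low and 10.64, 10.64, 10.14 and 8.74 in negative cells. All tamoxifen negative arrays lay above all control negative arrays, and Cdkn1a rose there by 2.11 ± 0.36 (limma, adjusted p = 0.00263). In that comparison 0 of the 40 replication genes were called, with 19 of their differences above 0. Of 27 G2 and mitosis genes 0 were called there (1.62% of all genes called higher and 0.703% lower), with a median of -0.84. By limma, 4 had an unadjusted p under 0.05, with the share of all genes at that cut not computed. Their mean was 7.90, 7.37 and 7.45 on control negative and 6.08, 5.65, 7.38 and 7.88 on tamoxifen negative arrays. How Cdkn1a and the replication genes relate was not tested. In low cells the Cdkn1a difference was 0.93 ± 0.36 (adjusted p = 0.125), and in high cells 0.05 ± 0.36 (adjusted p = 0.962). The interaction of high minus negative cells was -2.06 ± 0.51 (adjusted p = 0.104) and did not pass. Tamoxifen negative 3 and 4, the 2 lowest of their group for Cdkn1a, were the 2 highest for the mean of the replication genes (7.13 and 7.02, against 6.32 and 6.22 on arrays 1 and 2). Cdkn2c, a CDK4 and CDK6 inhibitor, fell by 0.99 ± 0.25 in negative cells (adjusted p = 0.0411).

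In high cells after tamoxifen, 1 of 40 other replication and checkpoint genes was higher and 1 of 21 other nucleotide supply genes lower, where 1.7% of all genes were called higher and 1.04% lower. Hus1, part of a checkpoint clamp loaded at damaged DNA, rose by 1.36 ± 0.25 (adjusted p = 0.00443). Rrm2b, the p53-induced subunit of ribonucleotide reductase, fell by 0.65 ± 0.17 (adjusted p = 0.0394).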
